A study of Mus musculus with 10 samples.

Results

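Exon peaks were the CUT&Tag peaks whose annotation in the deposited peak table began with the word exon, which held for 6560 of the 108253 peaks (6.06%). CUT&Tag cuts and tags the chromatin next to an antibody, so that reads pile up where a histone mark lies. The libraries came from retinal explants of wild-type C57BL/6J mice at postnatal day 28, cultured for 48 h in medium with 5 mM or 25 mM glucose, and 500000 cells went into each assay. Lactylation of lysine 18 of histone H3 (H3K18La) was profiled in 3 libraries at each glucose level and acetylation of lysine 27 (H3K27Ac) in 2 libraries at each, 10 libraries in all, and the labels place all of them in batch 1. The 4 groups shared strain, age, culture time and batch, and differed by their titles in glucose and mark. The titles name H3K27Ac, whereas the extraction text attached to the same libraries lists antibodies to H3K18La and H3K9me3 and none to H3K27Ac, while the methods of the study name H3K18La and H3K27Ac for this assay, and the titles were followed here. An explant is a whole retina kept in a dish without its blood supply, and the retina was freed of the sclera and retinal pigment epithelium before culture. It remains a mixture of neurons and glia, so that fewer cells of a type and less signal per cell cannot be told apart in any value below. The labels do not say whether replicates came from separate animals or cultures, so that p-values measure the spread between these libraries.

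Histone lactylation attaches a lactyl group derived from lactate to lysine residues, and H3K18La is found at promoters and enhancers of active genes in many tissues. H3K27Ac marks active promoters and enhancers. The retina makes much lactate from glucose even when oxygen is plentiful, and its photoreceptors are the main site of this aerobic glycolysis. Exons are mostly short stretches within long genes, and a peak wider than its exon that is annotated to an exon usually also covers the introns on both sides. Some exons also act as enhancers of their own or of neighbouring genes.

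The label of a coding exon held for only part of the peaks. Of the 6560 exon peaks, 4288 (65.4%) overlapped at least 1 base of annotated coding sequence and 2272 (34.6%) overlapped none. By the type of the gene whose exon was named, 4798 peaks lay in protein-coding genes and 1267 in genes for long non-coding RNAs. Another 269 lay in transcribed regions whose coding status is still to be experimentally checked (TEC), 184 in pseudogenes and 42 in other types, while 512 of the peaks in protein-coding genes covered no coding base, their named exon belonging to a non-coding transcript or to an untranslated stretch. The peaks are therefore called exon peaks here, and coding exon peaks only where coding sequence was overlapped. CUT&Tag reads carry no information on the transcribed strand, so that peaks on antisense genes cannot be assigned to either strand.

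An exon peak was far wider than the exon it was named for. The median width was 772 bases, against 757 for all peaks, with the middle 50% of widths between 539 and 1144 and extremes of 227 and 4423. The median length of the named exons was 172 bases, and a median of 24.5% of a peak's bases were exonic in any annotated transcript. In 71.1% of the exon peaks less than 50% of the bases were exonic, whereas 1198 peaks were at least 90% exonic. The named exon was found in the annotation for 6528 peaks; it lay wholly inside the peak in 3230 of them, and the peak lay wholly inside the exon in 979. The named exon was internal to its transcript in 4556 peaks, the last in 1227, the sole exon in 570 and the first in 207. The exon peaks were spread over 4736 genes on 20 chromosomes, with 77 peaks on X and 0 on Y. Of these genes, 3622 had 1 exon peak and 390 had 3 or more. The median distance to the nearest transcription start site was 28902 bases, with 1074 peaks within 5 kb, and in 716 peaks the nearest gene was not the gene that owned the exon.

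The peaks differed in how coding sequence sat in them, and the following exons show it because the results below return to them. In the first 4 lines, capitals mark coding bases and lower case the 40 flanking intronic bases on each side, read 5′ to 3′ on the gene's strand from GRCm38. Slc24a1, the sodium, calcium and potassium exchanger of rods, had a peak over exon 4 of 10 (chr9:64935875-64936063, minus strand); the exon's 109 coding bases lay inside a peak of more than 3 kb. Abca4, the retinoid transporter of photoreceptor discs, had a peak over exon 3 of 50 (chr3:122054152-122054373, plus strand) with 142 coding bases. Ccdc162, a gene for a coiled-coil protein with the most exon peaks of any gene, is shown by exon 7 of 48 (chr10:41680176-41680394, minus strand) and exon 27 of 48 (chr10:41612730-41612986, minus strand), of whose 177 coding bases the peak covered 58. 2410152P15Rik, a long non-coding RNA gene, is shown by the end of its last exon (chr19:6617631-6617810, minus strand), where capitals mark exonic and not coding bases.
Slc24a1 exon 4: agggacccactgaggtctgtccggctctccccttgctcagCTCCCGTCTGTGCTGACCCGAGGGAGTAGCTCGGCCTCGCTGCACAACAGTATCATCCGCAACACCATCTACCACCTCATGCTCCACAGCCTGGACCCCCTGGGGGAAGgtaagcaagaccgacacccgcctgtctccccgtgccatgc
Abca4 exon 3: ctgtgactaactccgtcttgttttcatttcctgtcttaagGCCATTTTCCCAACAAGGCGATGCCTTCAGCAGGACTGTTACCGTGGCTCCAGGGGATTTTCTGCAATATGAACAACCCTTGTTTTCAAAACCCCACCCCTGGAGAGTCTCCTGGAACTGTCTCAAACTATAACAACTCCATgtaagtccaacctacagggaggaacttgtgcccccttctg
Ccdc162 exon 7: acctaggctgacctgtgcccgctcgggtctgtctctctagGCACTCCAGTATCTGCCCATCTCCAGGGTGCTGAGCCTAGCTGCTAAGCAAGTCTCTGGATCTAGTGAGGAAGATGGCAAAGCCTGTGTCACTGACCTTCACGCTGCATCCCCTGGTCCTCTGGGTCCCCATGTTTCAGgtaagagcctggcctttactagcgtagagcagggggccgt
Ccdc162 exon 27: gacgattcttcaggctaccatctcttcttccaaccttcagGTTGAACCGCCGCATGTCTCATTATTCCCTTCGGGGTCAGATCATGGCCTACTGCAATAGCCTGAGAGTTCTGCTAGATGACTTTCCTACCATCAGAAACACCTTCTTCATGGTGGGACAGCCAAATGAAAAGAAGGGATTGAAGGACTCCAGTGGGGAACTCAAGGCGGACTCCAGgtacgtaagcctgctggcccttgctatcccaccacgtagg
2410152P15Rik exon 2: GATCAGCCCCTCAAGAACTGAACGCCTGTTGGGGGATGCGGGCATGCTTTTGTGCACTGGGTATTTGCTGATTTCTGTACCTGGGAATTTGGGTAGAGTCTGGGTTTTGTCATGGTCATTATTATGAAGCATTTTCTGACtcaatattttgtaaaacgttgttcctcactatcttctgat

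In contrast, the exon peaks of Lrit1 and Neurod1 lay wholly inside a coding exon. The 150 central bases of each are shown with CpG dinucleotides in capitals, since these peaks are among the CpG-dense ones. The Lrit1 stretch (chr14:37057397-37057546, plus strand) held 9 CpG dinucleotides and the Neurod1 stretch (chr2:79454268-79454417, minus strand) held 11.
Lrit1 exon 2: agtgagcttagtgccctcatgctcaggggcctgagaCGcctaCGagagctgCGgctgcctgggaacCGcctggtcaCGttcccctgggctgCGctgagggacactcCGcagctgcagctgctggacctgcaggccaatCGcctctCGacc
Neurod1 exon 2: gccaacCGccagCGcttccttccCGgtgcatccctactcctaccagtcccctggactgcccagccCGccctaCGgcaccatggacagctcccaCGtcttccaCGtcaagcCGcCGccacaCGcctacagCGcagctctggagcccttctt

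In base composition the exon peaks stood between intron and promoter peaks. Median GC content was 51.3% in exon peaks, 48.5% in the 45481 intron peaks and 57.5% in the 17144 promoter peaks, the promoter reaching from 1000 bases before to 500 after a start site. The median ratio of observed to expected CpG was 0.228 in exon peaks, 0.181 in intron peaks and 0.596 in promoter peaks. In the 300 central bases of each peak, on both strands, the GC-box core GGGCGG was present in 8.03% of exon peaks, 5.03% of intron peaks, 44.8% of promoter peaks and 11.8% of all peaks. The photoreceptor homeobox (CRX-type) core TAATCC was present in 11.3% of exon peaks, 12.9% of intron peaks, 6.95% of promoter peaks and 11.5% of all peaks. The E-box CAGCTG, a core bound by basic helix-loop-helix proteins, was present in 23.4% of exon, 20.7% of intron, 18.8% of promoter and 20.5% of all peaks. CACGTG was present in 5.21% of exon and 4.85% of all peaks, TGACTCA in 5.06% and 5.57%, and CACCC in 58.6% and 55.6%. No motif of the set contains another, and a match is a description of the letters only.

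The libraries differed in depth and in signal. The deposited values were RPKM (reads scaled to the width of the peak and to the read total of the library), and whole reads could be recovered from them, with per-library denominators between 1358008 and 7424470 reads. The share of the denominator that fell in any peak ran from 11.8% to 12.01% at 5 mM and from 31.2% to 35.0% at 25 mM for H3K18La. For H3K27Ac it was 21.1% and 31.5% at 5 mM, against 69.5% and 56.5% at 25 mM. This share moved with glucose in both marks, and its part in the glucose comparisons was not tested except by the alternative scalings given below. The 3 H3K18La libraries at 5 mM were compared in pairs by chi-square tests over peaks with at least 10 reads in the pair. Over exon peaks (1720, 641 and 1501 tested) the chi-square per degree of freedom was 1.04, 1.06 and 1.05 (p = 0.126, 0.147 and 0.0929). Over all peaks (28380, 9654 and 24745 tested) it was 1.06, 1.05 and 1.04, and each pair differed. With fewer exon peaks tested, these p-values do not show that counting noise alone separated the libraries. They were kept as 3 samples. Promoter peaks of cell type markers were summed over lists of unlike length. The rod sums were above all others except in H3K18La at 5 mM, where the bipolar sums (5.68 to 16.7 RPKM) overlapped them. All 8 rod markers had a promoter peak, with a summed level of 13.1 to 17.4 RPKM at 5 mM and 62.9 to 149.5 RPKM at 25 mM in H3K18La, and of 55.8 to 99.1 and 258.6 to 459.4 RPKM in H3K27Ac. Cone (5 of 6 with a promoter peak), bipolar (6 of 8), Muller glia (7 of 8) and amacrine markers (3 of 7) summed to between 1.60 and 84.6 RPKM. Ganglion (3 of 6) and horizontal cell markers (1 of 4), also of the neural retina, stayed at or below 3.88 RPKM in every library, as low as those of microglia (1 of 6), retinal pigment epithelium (1 of 5) and endothelium (2 of 4), which stayed at or below 5.80 RPKM. Endothelial marker promoters had negative median differences with glucose, -0.72 in H3K18La and -0.92 in H3K27Ac.

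Exon peaks held few reads each. The median exon peak had between 1 and 13 reads per library, and between 3.02% and 39.2% of the exon peaks had 0 reads in a library, the highest share being in the shallowest library, H3K18La at 5 mM replicate 3. Reads in exon peaks made up 0.756%, 0.746% and 0.752% of the denominator in the 3 H3K18La libraries at 5 mM. At 25 mM they made up 2.11%, 1.96% and 1.94%. In H3K27Ac they made up 1.26% and 1.94% at 5 mM and 3.75% and 3.35% at 25 mM. The groups did not overlap within either mark. The 95% Wilson intervals of these shares, which cover counting error only, were at most 0.0402 percentage points wide. The median RPKM of an exon peak was 0.832 to 0.900 in H3K18La at 5 mM and 1.47 to 1.62 at 25 mM, and in H3K27Ac 1.28 and 1.67 at 5 mM and 2.27 and 2.19 at 25 mM. Averaged over the 10 libraries, 4642 exon peaks exceeded 1 RPKM, 913 exceeded 5 RPKM and 266 exceeded 10 RPKM.

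The share of peak reads that fell in exon peaks was close to their share of the peaks. It was 6.30%, 6.27% and 6.36% in H3K18La at 5 mM and 6.04%, 6.21% and 6.21% at 25 mM. In H3K27Ac it was 5.99% and 6.14% at 5 mM and 5.40% and 5.94% at 25 mM. Within each mark every library at 25 mM was below every library at 5 mM, while the marks overlapped. By exact permutation the difference between glucose levels reached the smallest p the design allows in H3K18La (p = 0.1, 3 against 3 libraries, two-sided) and in H3K27Ac (p = 0.333, 2 against 2). The H3K18La mean was 6.23% ± 0.110 (SD, n = 6) and the H3K27Ac mean 5.87% ± 0.321 (SD, n = 4), with exact p = 0.01 over the 100 arrangements within glucose levels. Over the 33 exact tests of such per-library measures the Benjamini-Hochberg adjusted p was 0.055 here, and none was below it.

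**Figure D1:**
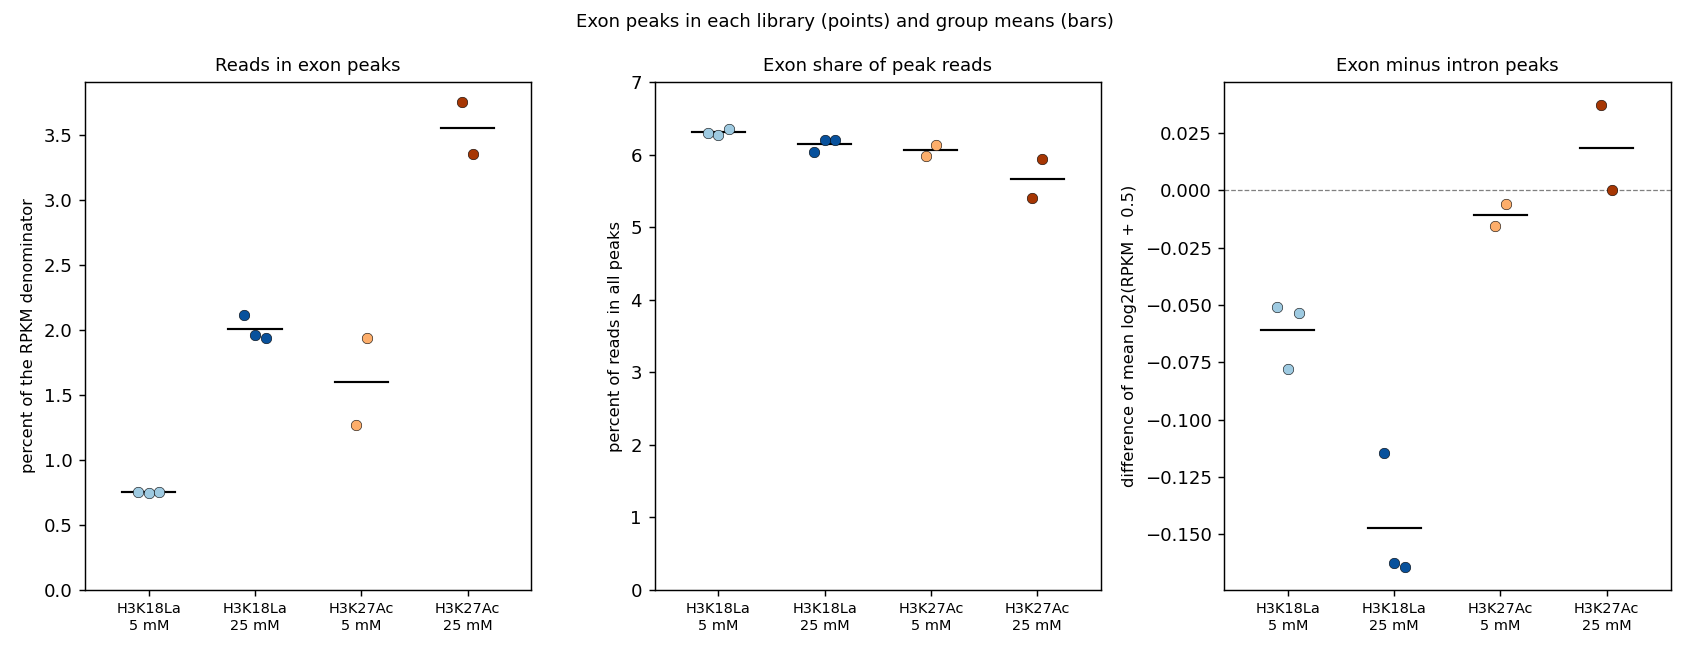
Each point is 1 library, grouped by mark and glucose level, and horizontal bars are group means; the panels show reads in exon peaks as a percent of the RPKM denominator, the share of peak reads in exon peaks (percent) and the mean log2(RPKM + 0.5) of exon peaks minus that of intron peaks. Reads in exon peaks make up 0.746% to 0.756% of the denominator at 5 mM and 1.94% to 2.11% at 25 mM in H3K18La, while their share of peak reads lies between 5.40% and 6.36% in all 10 libraries.

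Exon peaks stood closer to promoter peaks in H3K18La than in H3K27Ac. The mean log2(RPKM + 0.5) of exon peaks minus that of promoter peaks was -0.12, -0.01 and -0.06 for H3K18La at 5 mM and -0.41, -0.13 and -0.11 at 25 mM. In H3K27Ac it was -0.64 and -0.69 at 5 mM and -1.25 and -0.94 at 25 mM. Every H3K27Ac library was below every H3K18La library, with means of -0.88 ± 0.28 (SD, n = 4) and -0.14 ± 0.14 (SD, n = 6), exact permutation p = 0.01 and adjusted p = 0.055. Among peaks with a mean of at least 1 RPKM the H3K18La mean changed sign to 0.06, whereas the order of the marks held.

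Against intron peaks the order of the marks was the opposite. Exon minus intron was -0.05, -0.08 and -0.05 in H3K18La at 5 mM and -0.11, -0.16 and -0.16 at 25 mM, and it was -0.02 and -0.01 in H3K27Ac at 5 mM and 0.04 and -0.00 at 25 mM. All 6 H3K18La libraries thus had lower exon than intron peaks (exact sign-flip permutation p = 0.0312, adjusted p = 0.103), and they lay below all 4 H3K27Ac libraries (exact p = 0.01, adjusted p = 0.055). The glucose levels did not overlap within H3K18La (means -0.15 at 25 mM and -0.06 at 5 mM, exact p = 0.1, the smallest possible).

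Coding content separated the marks. In every H3K18La library the mean log2 level of coding exon peaks was below that of exon peaks without coding sequence, by 0.04 to 0.07 at 5 mM and by 0.09 to 0.18 at 25 mM. In every H3K27Ac library it was above, by 0.08 and 0.13 at 5 mM and by 0.16 and 0.14 at 25 mM. Exon peaks of protein-coding genes minus those of long non-coding RNA genes ran from -0.25 to -0.07 in H3K18La and from 0.23 to 0.34 in H3K27Ac. These differences, chosen after the label check, are given as a description with no test. CpG-rich exon peaks, the 25% with the highest CpG ratio, were below the others in all 10 libraries, by 0.13 to 0.26 in H3K18La and by 0.04 to 0.11 in H3K27Ac (exact p = 0.01 between marks, adjusted p = 0.055).

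Differences by position in the gene were small. Peaks on last exons minus those on internal exons averaged 0.04 in H3K18La (lowest -0.01, highest 0.10) and -0.05 in H3K27Ac (lowest -0.07, highest -0.03), with exact p = 0.01 between marks and adjusted p = 0.055. These directions depended on which peaks were counted: with only coding exon peaks the H3K18La mean turned to -0.22 and the difference between marks to -0.08, and among peaks of at least 1 mean RPKM the H3K27Ac mean turned to 0.08. Exon peaks within 5 kb of a start site were lower than farther ones by a mean of 0.13 in both marks, with libraries between -0.16 and -0.06, and the marks overlapped (exact p = 1). In H3K27Ac this turned to 0.07 among peaks of at least 1 mean RPKM and to 0.03 among coding exon peaks.

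Averaged over all 10 libraries, in which H3K27Ac at 25 mM weighs most, the highest exon peaks lay in Lrit1, Gdpd5 and AC141471.5. Among the 8 highest by this mean the order differed in H3K18La at 25 mM, with means of 30.2 RPKM in Gdpd5, 26.3 in AC141471.5, 23.6 in Akna and 20.9 in Coro7, all above the 14.9 of Lrit1. The peak with the highest mean over all libraries lay in exon 2 of 4 of Lrit1 (chr14:37057250-37057692), a leucine-rich repeat protein of photoreceptors, all of whose 443 bases were coding. Its level was 6.42, 3.05 and 8.31 RPKM in H3K18La at 5 mM and 14.9, 14.4 and 15.2 RPKM at 25 mM. In H3K27Ac it was 21.9 and 25.8 RPKM at 5 mM and 80.7 and 70.8 RPKM at 25 mM. The glucose levels did not overlap in either mark, and the log2 difference was 1.36 ± 0.31 (SE, adjusted p = 0.00722) in H3K18La and 1.65 ± 0.50 (adjusted p = 0.0307) in H3K27Ac by limma. The next highest lay in Gdpd5 exon 4 of 18 (a glycerophosphodiester phosphodiesterase), in a 2-exon long non-coding RNA gene AC141471.5, and in Coro7 exon 8 of 28 (a coronin of the Golgi). They were followed by Gm27244 exon 1 of 2, Epas1 exon 5 of 16 (the hypoxia-inducible factor HIF-2 alpha), Tob1 exon 2 of 2 (an antiproliferative protein) and Akna exon 5 of 22 (an AT-hook protein). Over these 8 peaks, levels ranged from 1.91 to 8.31 RPKM in H3K18La at 5 mM and from 8.16 to 33.6 RPKM at 25 mM, and from 7.29 to 36.0 and 44.4 to 80.7 RPKM in H3K27Ac. All 8 rose with glucose in H3K18La, and all but Tob1 (17.7 and 36.0 against 65.6 and 62.7 RPKM, adjusted p = 0.077) passed the test in H3K27Ac. Over all peaks 20.6% rose in H3K18La and 16.4% in H3K27Ac. The 8 peaks were chosen by a mean that includes the 25 mM libraries, so that their rises are not independent of the choice. Scaled to reads in peaks, the H3K18La differences of Gm27244 (-0.35) and Lrit1 (-0.013) changed sign. Without H3K18La 25 mM replicate 2 the H3K18La calls of Tob1 (adjusted p = 0.051) and Gm27244 (adjusted p = 0.176) were lost, the latter also without 25 mM replicate 1 (0.153), 5 mM replicate 1 (0.139) or 5 mM replicate 2 (0.0697).

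H3K18La at exon peaks was higher in 25 mM than in 5 mM glucose. At an adjusted p under 0.05 in limma, 1268 exon peaks (19.3%) were higher and 5 were lower, against 20.6% higher and 0.117% lower over all peaks tested. The median log2 difference was 0.73 over exon peaks and 0.76 over all peaks, and 81.4% of exon peaks had a positive difference. The share of exon peaks called was thus near that of all peaks and is not a result about exon peaks. The values are relative to the denominators: when each library was scaled to its reads in peaks, 0 exon peaks passed the test, and the median over all peaks went from 0.76 to -0.07 and that over exon peaks to -0.11. With each library centred on its median peak, 278 exon peaks were higher and 15 lower. Scaling lost all 31 named H3K18La calls by glucose, and centring lost 11 of them, those of Lrit1 (adjusted p = 0.239 by limma), Gm27244 (0.588), Tob1 (0.187), Pde6a (0.0966), Casz1 (0.153), Abca4 exon 3 (0.0648), Prph2 (0.0522), Syp (0.164), Zfp710 (0.0545), Col5a3 (0.268) and Foxn1 (0.242). Without 25 mM replicate 2 the count of exon peaks passing fell from 1273 to 706, and without 25 mM replicate 1 to 826.

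The largest H3K18La rises started from very few reads. In the copy of a 5S ribosomal RNA gene n-R5s154 (chr7:82754613-82754964), the 5 mM libraries held 0, 1.10 and 0 RPKM and the 25 mM libraries 18.8, 16.1 and 11.5 RPKM. That is 48 reads against 2, a pooled ratio of 23.1 with a 95% counting interval of 6.05 to 196. Reads of such repeated genes can be shared among near-identical copies, so that this value is uncertain. Ccdc162 exon 7, printed above, held 0, 1.12 and 0 RPKM at 5 mM and 7.89, 8.58 and 6.53 RPKM at 25 mM, a pooled ratio of 11.5 (interval 3.65 to 58.6; 36 reads against 3). Naaa exon 9 of 11, in the gene of an acid amidase that breaks down fatty acid ethanolamides, had 0, 2.04 and 0.707 RPKM at 5 mM and 17.1, 9.44 and 10.0 RPKM at 25 mM, a log2 difference of 3.41 ± 0.51 (adjusted p = 0.000557). 2410152P15Rik exon 2 had 1.86, 2.27 and 0 RPKM against 16.0, 12.5 and 17.2 RPKM, a log2 difference of 3.39 ± 0.52 (adjusted p = 0.000655). Phc2 exon 8 of 15, in the gene of a Polycomb protein, had 2.48, 1.41 and 0 RPKM against 13.9, 14.4 and 13.4 RPKM, a log2 difference of 3.34 ± 0.52 (adjusted p = 0.000674). The naming rule asked that the 25 mM and 5 mM libraries not overlap, so that their separation was set by the choice. The other 3 of the 8 largest rises lay in Gm44164 (chr6:145238899-145239418), Gm16041 (chr1:4975519-4975825) and Gm10637 (chr8:87196974-87197430), with log2 differences of 3.51, 3.30 and 3.30, the reads at 5 mM numbering 4, 8 and 4 in all. These 8 calls kept an adjusted p under 0.05 with each library left out in turn.

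The 5 exon peaks with lower H3K18La at 25 mM, named after their values were seen, all held few reads. In Ndnf exon 3 of 4 (chr6:65701482-65701779), in the gene of a secreted neurotrophic factor, the 5 mM libraries held 1.59, 1.94 and 2.47 RPKM, from 5 reads in all, and the 25 mM libraries 0 reads each. In Dclre1c exon 11 of 16, in the gene of the DNA repair nuclease Artemis, the 5 mM libraries held 4.63, 0.627 and 2.39 RPKM and the 25 mM libraries 0, 0.400 and 0. The remaining 3 lay in Tgm4 exon 5, Lama1 exon 3 and Hydin exon 71, with 5 to 8 reads at 5 mM and 0 or 1 read at 25 mM. No fall passed the rule for named peaks, which asked for a mean of at least 10 reads in the higher group.

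H3K27Ac at exon peaks also was higher at 25 mM. At an adjusted p under 0.05, 963 exon peaks (14.7%) were higher and 5 lower, against 16.4% higher and 0.179% lower over all peaks. The median log2 difference was 0.61 over exon peaks and 0.58 over all peaks, and the share called was again near that of all peaks. With 2 libraries a group these calls depended on every library: with any of the 4 left out, 1 group kept a single library, assumed to vary like the others, and 0 exon peaks passed, although 314 to 2362 had an unadjusted p under 0.05. Scaled to reads in peaks, 0 exon peaks passed (963 at unadjusted p under 0.05), with a median of -0.32 over exon peaks and -0.29 over all peaks. Centred on the median peak, 216 were higher and 15 lower. Scaling lost all 30 named H3K27Ac calls by glucose, and centring lost 13 of them, in Lrit1, Gdpd5, Coro7, Gm27244, Epas1, Akna, Abca4 exon 3, Aipl1, Pcdhgc4, Zfp532, Zfp36l2, Col4a3 and Foxn1, at adjusted p between 0.0524 and 0.17 by limma.

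Of the 8 largest H3K27Ac rises, that of Rncr4 held the most reads at 25 mM. Rncr4 (chr6:30174121-30176254), a retinal non-coding RNA, had 5.20 and 6.64 RPKM against 69.6 and 24.2 RPKM in H3K27Ac, a log2 difference of 2.70 ± 0.51 (adjusted p = 0.0113). In H3K18La the Rncr4 peak had 2.00, 1.08 and 0.690 RPKM against 19.5, 6.22 and 4.74 RPKM, with replicate 1 at 25 mM far above the other 2. In this peak replicate 1 at 25 mM was the highest library of each mark, the one with the largest share of reads in peaks. Firre exon 4 of 7 (chrX:50614822-50615402), in the gene of a nuclear long non-coding RNA, had 0 reads in both 5 mM libraries and 31 and 15 reads at 25 mM, at least 11.1-fold higher against a floor of 3 reads over the group. Bcl3 exon 4 of 9, in the gene of a regulator of NF-kappaB, had 1.33 and 1.86 RPKM against 15.8 and 10.7 RPKM, a log2 difference of 2.70 ± 0.42 (adjusted p = 0.00645). F2 exon 3 (prothrombin), CT010496.1, Gm2093 exon 3 and Cilp exon 3 (a cartilage matrix protein) had log2 differences of 2.96, 2.84, 2.66 and 2.63. As for all H3K27Ac glucose calls, each was lost when any 1 of the 4 libraries was left out.

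The 5 exon peaks with lower H3K27Ac at 25 mM were again named after their values were seen. They were the single-exon odorant receptor genes Olfr645 and Olfr656, A730090N16Rik exon 3, Plxna4os1 exon 1 and Col27a1 exon 33. Col27a1 exon 33 of 61 (chr4:63302323-63303055), in the gene of a fibrillar collagen, had 2.84 and 1.98 RPKM at 5 mM and 0.379 and 0.919 RPKM at 25 mM. Its H3K18La was 1.29, 1.58 and 1.00 RPKM at 5 mM and 2.78, 3.69 and 2.76 RPKM at 25 mM. The marks thus lay in opposite order between glucose levels in this peak, with at most 11 reads in any library.

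The glucose effects of the 2 marks could not be told apart at single exon peaks. The interaction of glucose and mark passed an adjusted p of 0.05 in 0 exon peaks, as in 0% of all peaks for a larger effect in H3K18La and 0% for a smaller one. At an unadjusted p under 0.05 limma counted 254 exon peaks, and limma-voom on the recovered reads also passed 0 after adjustment and 408 before it. A p that misses the threshold does not show that the effects were equal. Of the risers, 539 exon peaks passed in both marks, 42.5% of the H3K18La risers and 56.0% of the H3K27Ac risers, against 39.5% and 49.6% of the risers among all peaks. A positive difference in both marks was seen in 68.9% of exon peaks and 67.4% of all peaks.

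Between the marks, exon peaks were more often lower in H3K18La. At 25 mM, 40 exon peaks (0.610%) were higher in H3K18La than in H3K27Ac and 1051 (16.0%) were lower, against 1.02% higher and 15.5% lower over all peaks, and the median log2 difference was -0.49 over exon peaks and -0.30 over all. At 5 mM, 7 were higher and 1073 lower, against 0.224% higher and 17.2% lower over all peaks, with medians of -0.63 and -0.54. The balance depended on the scaling: with libraries scaled to reads in peaks, 179 exon peaks were higher and 79 lower at 25 mM, and the median turned to 0.15, and 84 were higher and 109 lower at 5 mM. Centred on the median peak the counts were 106 and 775 at 25 mM and 32 and 487 at 5 mM. The count at 25 mM fell from 1091 to 182 without H3K27Ac 25 mM replicate 1 and to 384 without replicate 2, and that at 5 mM from 1080 to 66 without H3K27Ac 5 mM replicate 2. The marks were profiled with different antibodies, whose efficiencies cannot be told apart from the amounts of the marks.

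Which exon peaks leaned to which mark differed by the kind of gene. At 25 mM the median log2 difference of H3K18La minus H3K27Ac was -0.65 over exon peaks of protein-coding genes and -0.06 over those of long non-coding RNA genes. It was -0.60 over coding exon peaks and -0.29 over exon peaks without coding sequence. Of the peaks in protein-coding genes 18.9% were lower in H3K18La, and of those in long non-coding RNA genes 6.95%. For comparison, the median was -1.55 over promoter peaks, -0.36 over intron peaks and 0.09 over intergenic peaks. The glucose difference in H3K18La had a median of 0.68 over coding exon peaks, 0.81 over those without coding sequence, 0.85 in long non-coding RNA genes and 0.40 in pseudogenes. In H3K27Ac the corresponding medians were 0.62, 0.58, 0.55 and 0.26. Scaled to reads in peaks, the medians between marks moved up to 0.02 in protein-coding genes, 0.48 in long non-coding RNA genes, 0.05 over coding exon peaks, 0.31 over those without coding sequence and 0.25 over intron peaks, and stayed below 0 over promoter peaks (-0.67), so that the sign of these medians depended on the scaling while their order did not. These are descriptions over peaks, which share libraries and are not replicates.

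**Figure D2:**
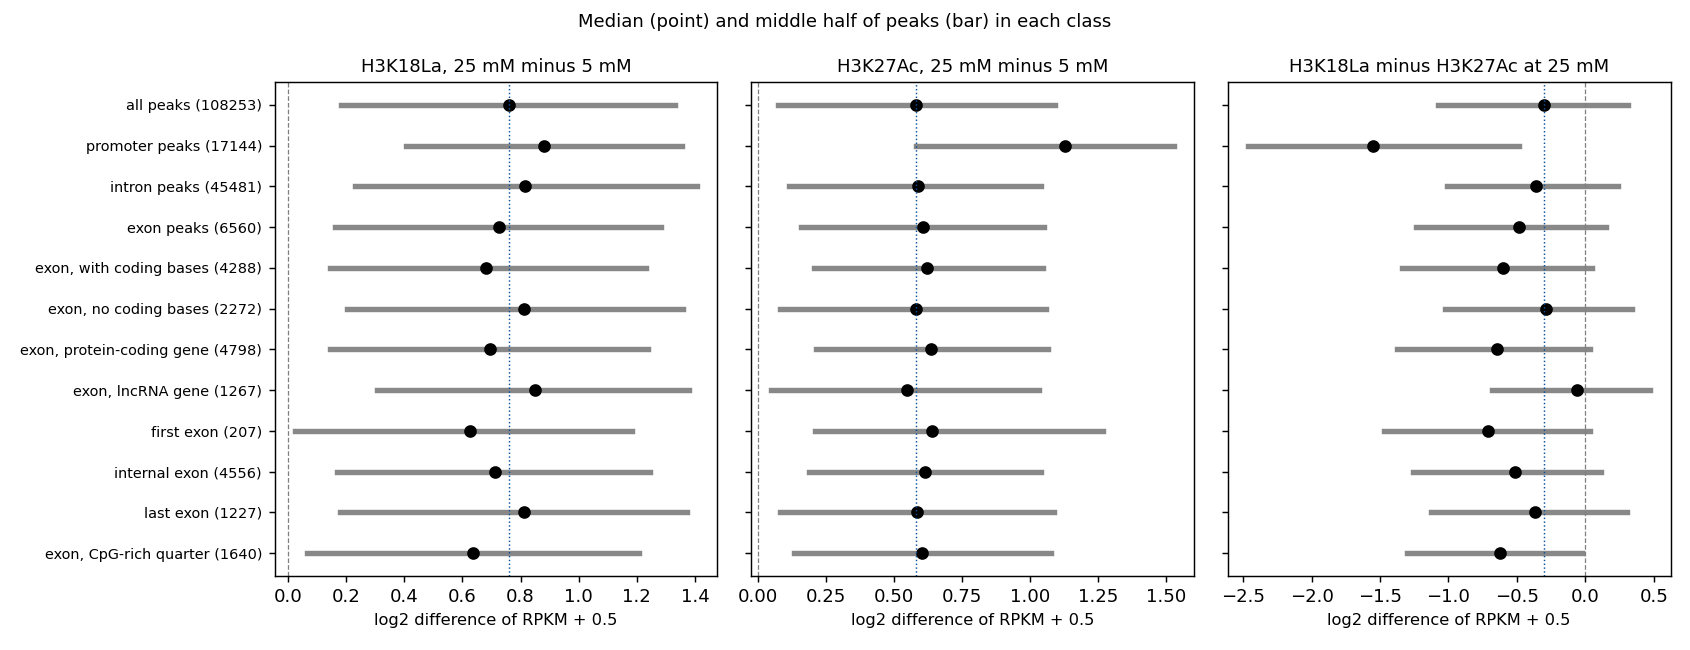
Points are the median log2 difference over the peaks of a class, with the number of peaks in parentheses, and bars run from the 25th to the 75th percentile of the peaks; the panels show 25 mM minus 5 mM in each mark and H3K18La minus H3K27Ac at 25 mM, all on the log2(RPKM + 0.5) scale, with the median of all peaks as a dotted line. In the right panel exon peaks of protein-coding genes (median -0.65) and of long non-coding RNA genes (-0.06) lie on either side of all peaks (-0.30).

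Exon peaks were compared with the promoter peaks of the same genes where both existed, which held for 4055 exon peaks in 2682 genes. For each of the 2682 genes, 1 exon peak and 1 promoter peak were compared, those with the highest mean RPKM over all libraries. That mean includes the libraries compared here. The median log2 difference with glucose was 0.82 in these exon peaks and 1.04 in these promoter peaks for H3K18La, and 0.71 and 1.12 for H3K27Ac. The exon peak had the smaller difference in 59.2% of cases for H3K18La and in 69.3% for H3K27Ac. Between marks at 25 mM the medians were -0.79 in exon peaks and -1.28 in promoters.

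The largest differences in favour of H3K18La at 25 mM lay in Gm10398, Slit3 and Ccdc162. Gm10398 exon 2 of 2 (chr14:24913106-24913632) had 3.86, 8.87 and 10.9 RPKM in H3K18La and 1.58 and 0.511 RPKM in H3K27Ac at 25 mM, a log2 difference of 2.42 ± 0.60 (adjusted p = 0.01). Slit3 exon 17 of 36 (chr11:35629579-35630190), in the gene of an axon guidance ligand, had 3.33, 9.24 and 4.41 RPKM against 0.454 and 1.10 RPKM, a log2 difference of 2.20 ± 0.53 (adjusted p = 0.00838). Ccdc162 exon 27, printed above, had 11.0, 10.7 and 7.31 RPKM against 1.13 and 3.65 RPKM, a log2 difference of 1.95 ± 0.59 (adjusted p = 0.0318). Peaks were named here only where the groups did not overlap, so that their separation was set by the choice. 1700027J07Rik exon 2 (chr10:43757263-43757988) and A330076C08Rik exon 3 (chr13:44188259-44189696) had log2 differences of 1.72 and 1.71. The Slit3 call was lost without H3K18La 25 mM replicate 2 (adjusted p = 0.0517), and the Ccdc162 exon 27 call without H3K18La 25 mM replicate 1 (0.0792), replicate 2 (0.0953) or replicate 3 (0.0501). That of 1700027J07Rik was lost without replicate 2 (0.0555) or replicate 3 (0.0562), and that of A330076C08Rik without replicate 3 (0.0566). Without H3K27Ac 25 mM replicate 1, 21 of the 33 named calls of this comparison were lost, and with libraries scaled to reads in peaks 23 were.

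The exon peaks lowest in H3K18La relative to H3K27Ac, among them those in Dctn1, Ppargc1b and Eml3, each had at most 7 reads over the 3 H3K18La libraries at 25 mM. Dctn1 exon 4 of 28 (chr6:83183234-83183560), in the gene of the largest dynactin subunit of axonal transport, had 0, 1.50 and 0 RPKM in H3K18La and 16.2 and 16.5 RPKM in H3K27Ac at 25 mM. That is 2 reads against 78, a pooled ratio of 24.0 (interval 6.43 to 202). Eml3 exon 10 of 22, in the gene of a microtubule-binding protein, had 1 H3K18La read at 25 mM against 74 in H3K27Ac, a pooled ratio of 45.5 (interval 7.93 to 1823). Ppargc1b exon 9 of 13, in the gene of the mitochondrial coactivator PGC-1 beta, had 0, 3.83 and 0.876 RPKM against 21.7 and 23.4 RPKM (log2 difference -4.00 ± 0.62, adjusted p = 0.00061).

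**Figure D3:**
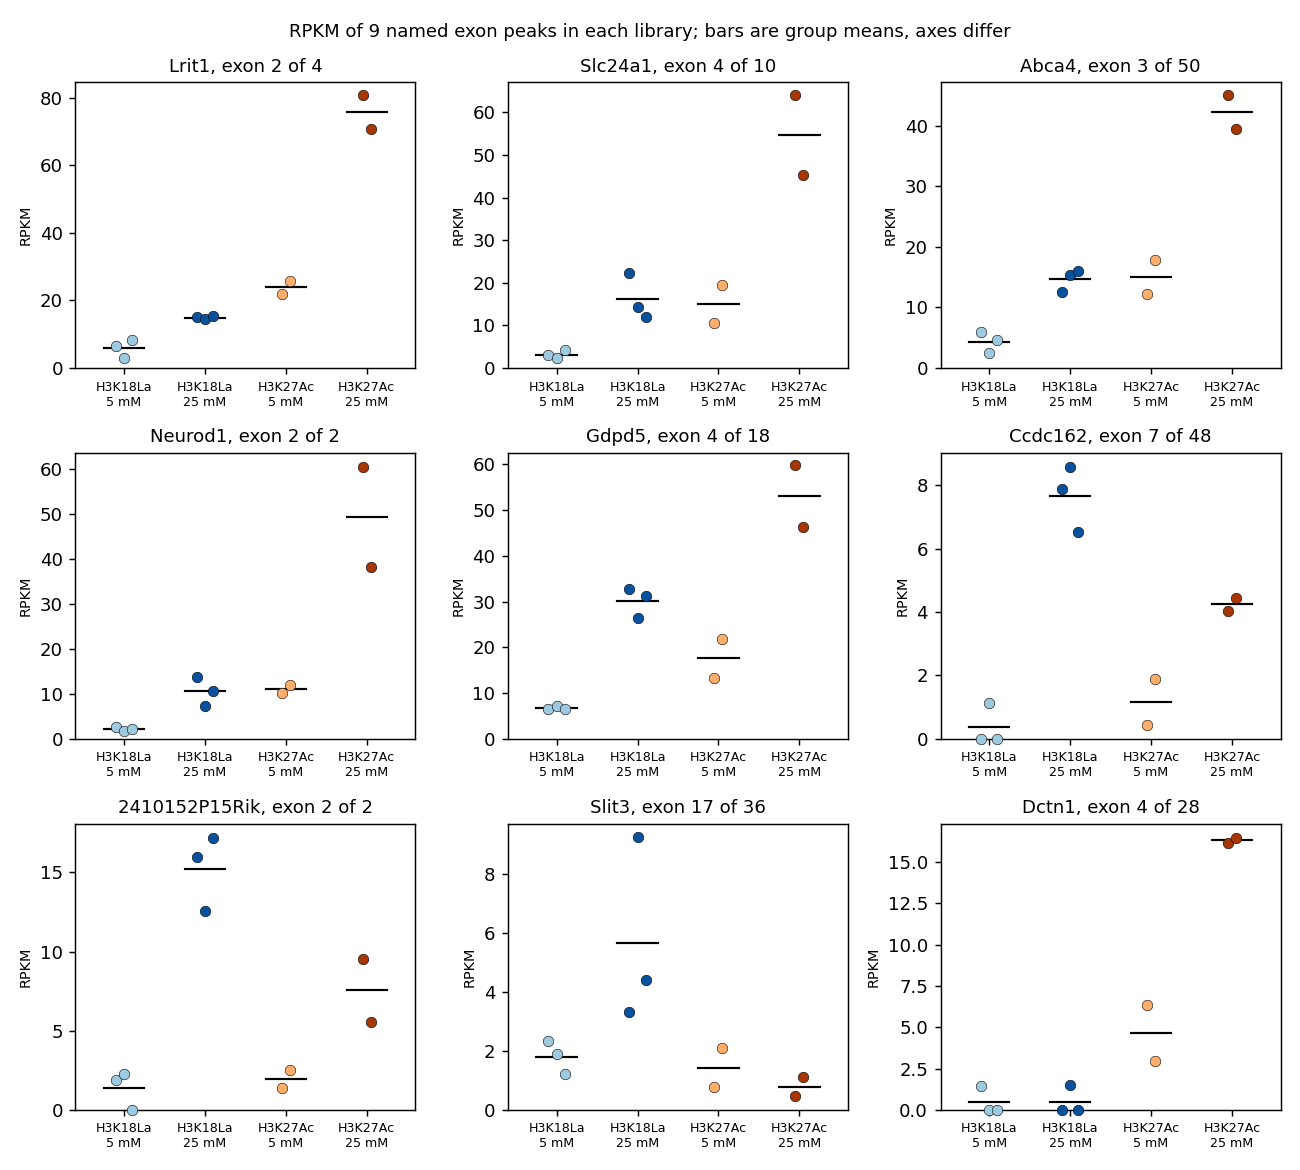
RPKM of 9 named exon peaks in each of the 10 libraries (points), grouped by mark and glucose level, with bars at group means and an axis from 0 for each peak. In Lrit1 the H3K27Ac libraries at 25 mM (80.7 and 70.8 RPKM) lie above all others, in Ccdc162 exon 7 the H3K18La libraries at 25 mM do (6.53 to 8.58 RPKM), and in Dctn1 the latter lie at 0, 1.50 and 0 RPKM.

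Ccdc162 had 12 exon peaks, the most of any gene, along chr10:41546380-41690751. Of these, 11 overlapped coding sequence, 10 rose with glucose in H3K18La and 3 in H3K27Ac, and 4 were higher in H3K18La than in H3K27Ac at 25 mM while 0 were lower. Over all peaks 20.6% rose in H3K18La and 16.4% in H3K27Ac, and 1.02% were higher and 15.5% lower in H3K18La than in H3K27Ac, against which the counts in this and the following genes are to be read. Averaged over its 12 peaks, the level was 2.09 to 2.26 RPKM for H3K18La at 5 mM and 7.78 to 8.43 RPKM at 25 mM, and in H3K27Ac 1.09 and 2.25 RPKM at 5 mM and 3.59 and 3.73 RPKM at 25 mM. At 25 mM every H3K18La library was thus above every H3K27Ac library in this gene. Over all exon peaks the median of H3K18La minus H3K27Ac was -0.49 in the deposited values and 0.15 scaled to reads in peaks. The log2 differences with glucose in H3K18La ran from 0.08 to 3.46 over the peaks of the gene.

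Abca4 had 10 exon peaks along chr3:122052394-122176311 and leaned the other way. Of these 3 rose with glucose in H3K18La and 3 in H3K27Ac, and 6 were lower in H3K18La than in H3K27Ac at 25 mM. The peak over exon 3, printed above, had 5.86, 2.38 and 4.55 RPKM in H3K18La at 5 mM and 12.6, 15.4 and 16.1 RPKM at 25 mM, and in H3K27Ac 12.2 and 17.8 RPKM against 45.0 and 39.5 RPKM. Exon 3 rose in both marks (log2 1.74 ± 0.31, adjusted p = 0.00148, and 1.48 ± 0.48, adjusted p = 0.0391). The peaks toward the end of the gene, over exons 48 and 49, had log2 differences with glucose that did not pass the test in either mark (adjusted p between 0.488 and 0.771).

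Dock8, the gene of a guanine nucleotide exchange factor best known in immune cells, had 10 exon peaks, of which 8 rose in H3K18La and 5 in H3K27Ac and 0 differed between marks at 25 mM. Its H3K18La peaks averaged 2.23 to 2.99 RPKM at 5 mM and 7.89 to 9.19 RPKM at 25 mM. Myo18a, an unconventional myosin gene, also had 10, with 3 risers in H3K18La, 4 in H3K27Ac and 4 peaks lower in H3K18La than in H3K27Ac. Col27a1, Mroh5 and Sspo had 9 each. In Mroh5, 6 rose in H3K18La and 2 in H3K27Ac. In Col27a1, 1 rose in H3K18La and 0 in H3K27Ac, and in Sspo, the gene of a giant secreted protein with 100 exons, 0 peaks passed in either mark. Many exon peaks in a gene therefore did not go with 1 pattern of change. The microglial markers, a cell type in which Dock8 is active, had a summed promoter level of 0.528 to 1.66 RPKM in H3K18La at 5 mM and 1.94 to 3.87 RPKM at 25 mM, with 1 of 6 having a promoter peak, and their part in the Dock8 values was not tested.

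**Figure D4:**
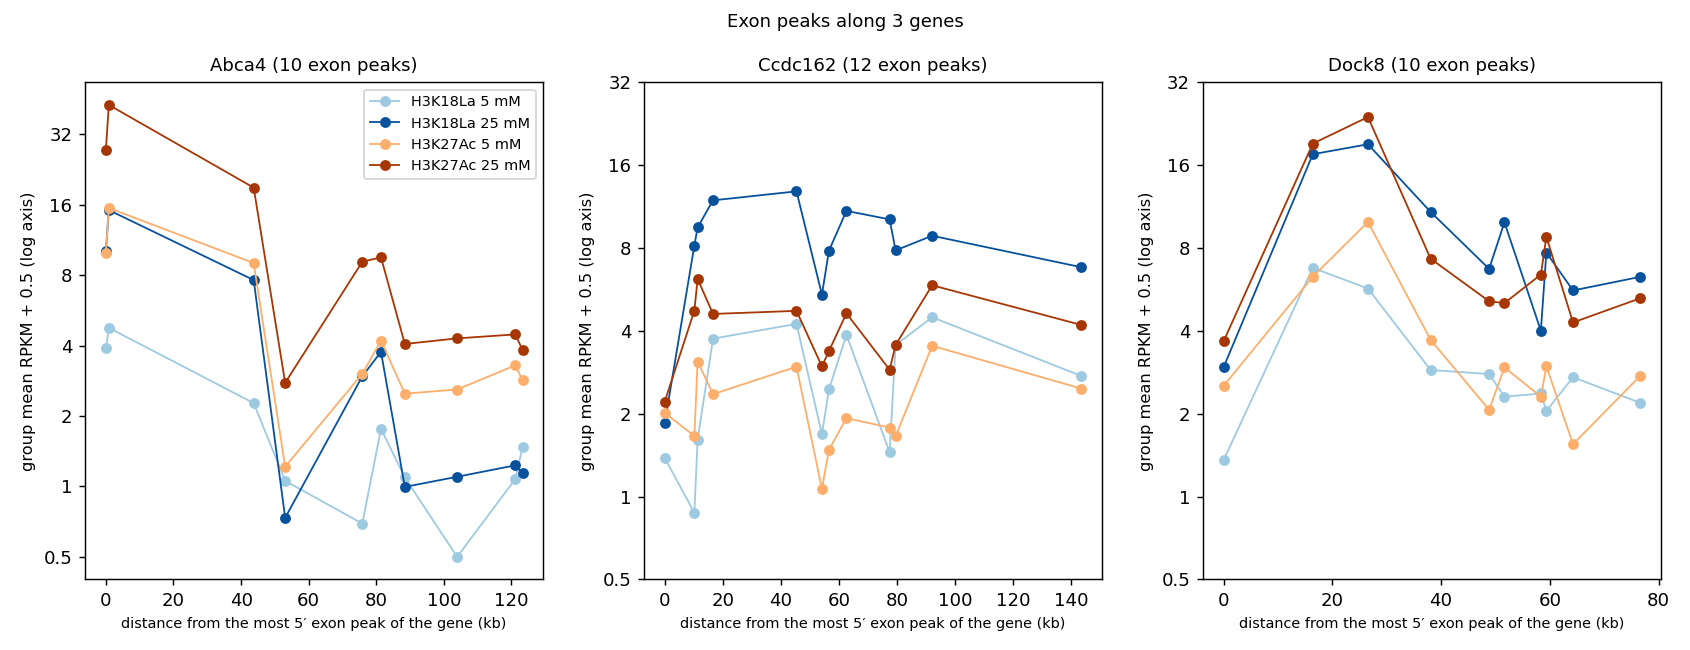
Group mean RPKM + 0.5 (log axis) of each exon peak of Abca4, Ccdc162 and Dock8 against its distance in kb from the gene's most 5′ exon peak, with a line for each mark and glucose level. The H3K27Ac line at 25 mM is the uppermost along Abca4, and the H3K18La line at 25 mM is the uppermost in 11 of the 12 peaks of Ccdc162.

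Phototransduction genes, which turn light into an electrical signal in rods and cones, had 20 exon peaks in 9 of the 29 listed genes. In H3K18La 4 of the 20 rose (20.0%, near the 20.6% of all peaks) and 0 fell, and in H3K27Ac 6 rose (30.0%, against 16.4%) and 0 fell. The median log2 differences were 0.87 and 1.03, against 0.76 and 0.58 over all peaks. At 25 mM 14 of the 20 were lower in H3K18La than in H3K27Ac, against 15.5% of all peaks, and 0 were higher. The median was -2.07, and -1.16 scaled to reads in peaks. Slc24a1 exon 4, printed above, had 2.95, 2.28 and 4.13 RPKM in H3K18La at 5 mM and 22.2, 14.3 and 11.96 RPKM at 25 mM (log2 difference 2.19 ± 0.31, adjusted p = 0.000403). In H3K27Ac it had 10.5 and 19.4 RPKM against 64.0 and 45.3 RPKM (1.88 ± 0.50, adjusted p = 0.0205). Both marks rose there without overlap between glucose levels. Pde6a exon 6 of 22, in the gene of the alpha subunit of the rod phosphodiesterase, had 0.468, 1.90 and 0 RPKM against 9.03, 5.58 and 2.66 RPKM in H3K18La (2.43 ± 0.59, adjusted p = 0.0101), a call lost without 25 mM replicate 1 (0.082) or replicate 2 (0.0648). Pde6b exon 4 of 22, in the gene of the beta subunit, had at most 3 H3K18La reads in any library and passed in neither mark with glucose, with H3K27Ac at 5.65 and 3.94 RPKM against 8.50 and 12.2 RPKM. The list includes Gucy2f, which the study named from these explants, and rod marker promoters rose over the same libraries as given above. The part of rod abundance in these values was not tested.

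Regulators of photoreceptor identity had 13 exon peaks in 8 of 21 listed genes. In each mark 7 of the 13 rose (53.8%) and 0 fell, against 20.6% of all peaks in H3K18La and 16.4% in H3K27Ac. The median log2 differences were 1.67 and 1.44, against 0.76 and 0.58 over all peaks. Scaled to reads in peaks the medians stayed above 0, at 0.36 and 0.27, although no peak passed. The list includes Neurod1, Casz1 and Crxos, which the study named from these explants, so that its direction is not independent evidence. Neurod1 exon 2 of 2 (chr2:79453994-79454690), in the gene of a basic helix-loop-helix factor that photoreceptors need to survive, had 2.72, 1.66 and 2.11 RPKM in H3K18La at 5 mM and 13.9, 7.41 and 10.6 RPKM at 25 mM (2.04 ± 0.33, adjusted p = 0.000855). In H3K27Ac it had 10.3 and 12.01 RPKM against 60.6 and 38.3 RPKM (2.07 ± 0.48, adjusted p = 0.0149). All 697 bases of this peak were coding. Esrrb exon 4 of 4, in the gene of an estrogen-related receptor of rods, had 2.92, 2.77 and 2.27 RPKM against 17.8, 14.6 and 11.4 RPKM in H3K18La (2.24 ± 0.28, adjusted p = 0.00024). Casz1 exon 3 of 3, a non-coding exon in the gene of a zinc-finger regulator of rod chromatin, had 2.39, 0.972 and 2.12 RPKM against 11.7, 5.84 and 4.61 RPKM in H3K18La (1.72 ± 0.41, adjusted p = 0.00961). That call was lost without 25 mM replicate 1 (0.0641) or 5 mM replicate 2 (0.0613).

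Genes of photoreceptor structure and inherited retinal disease had 41 exon peaks in 18 of 30 listed genes. In H3K18La 12 rose (29.3%, against 20.6% of all peaks) and 0 fell, and in H3K27Ac 14 rose (34.1%, against 16.4%) and 0 fell, with medians of 1.00 and 1.09 against 0.76 and 0.58. At 25 mM 20 were lower in H3K18La than in H3K27Ac, against 15.5% of all peaks, and 0 higher. The median was -1.63, and -0.78 scaled to reads in peaks. Scaled to reads in peaks the medians with glucose were -0.00 and -0.08. Aipl1 exon 3 of 6, in the gene of the chaperone of rod phosphodiesterase, had 1.93, 2.35 and 1.28 RPKM in H3K18La at 5 mM and 13.0, 11.6 and 11.9 RPKM at 25 mM (2.45 ± 0.31, adjusted p = 0.000231). Prph2 exon 2 of 3, in the gene of a tetraspanin of outer segment discs, had 1.84, 0.900 and 3.43 RPKM against 10.3, 9.55 and 8.12 RPKM (2.06 ± 0.38, adjusted p = 0.00199). The 25 mM libraries were above the 5 mM ones in both peaks, and both also rose in H3K27Ac (log2 1.48 and 2.17). Impg1, Impg2, Mpp4, Arl6 and Rp1 of this list were named by the study from these explants.

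Glycolysis and lactate genes had only 6 exon peaks, in 6 of 29 listed genes, and in 0 of them did either mark pass the test with glucose, which 20.6% and 16.4% of all peaks did as risers. At an unadjusted p under 0.05 limma counted 2 of the 6 in H3K18La and 4 in H3K27Ac. The median log2 difference was -0.05 in H3K18La and 0.93 in H3K27Ac. At 25 mM 5 of the 6 were lower in H3K18La than in H3K27Ac, against 15.5% of all peaks. The median was -2.42, against -0.30 over all peaks and -2.07 in the phototransduction list above. Scaled to reads in peaks the median of the 6 was -1.46. Pkm exon 8 of 11, in the gene of pyruvate kinase, had 0.759, 1.54 and 0 RPKM in H3K18La at 5 mM and 4.88, 1.97 and 1.62 RPKM at 25 mM, and 5.55 and 5.67 against 18.5 and 10.1 RPKM in H3K27Ac. Eno1 exon 6 of 8 (enolase) had 0, 1.63 and 0 against 1.72, 1.66 and 0 RPKM in H3K18La. Hk1 exon 18 of 20 (hexokinase) had 1.86, 0.379 and 0 against 0.999, 2.17 and 0.994 RPKM. The glucose levels overlapped in H3K18La for Eno1 and Hk1. The other 3 peaks, named to complete the list, had negative H3K18La differences that did not pass. They lay in Bsg exon 2 of 8 (basigin, a partner of lactate transporters; log2 difference -1.31 ± 0.74), Hk2 exon 10 of 18 (another hexokinase; -0.82 ± 0.59) and Pfkfb3 exon 8 of 17 (a regulator of phosphofructokinase; -1.41 ± 0.62), with adjusted p of 0.237, 0.358 and 0.129. The reads, at most 9 in any H3K18La library over these 6 peaks, limit what could be detected.

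Synapse genes had 20 exon peaks in 14 of 35 listed genes, of which 1 rose in H3K18La (5.0%, against 20.6% of all peaks) and 5 in H3K27Ac (25.0%, against 16.4%), with medians of 0.72 and 0.74 against 0.76 and 0.58. Syp exon 3 of 7, in the gene of the vesicle protein synaptophysin, was the H3K18La riser, with 1.80, 1.47 and 0.934 RPKM against 7.75, 4.37 and 4.28 RPKM (1.63 ± 0.39, adjusted p = 0.00988), and was lost without 25 mM replicate 1 (0.0565). Cacna1a exon 44 of 47, in the gene of a presynaptic calcium channel, rose in H3K27Ac from 2.38 and 2.39 RPKM to 18.1 and 8.85 RPKM (2.19 ± 0.44, adjusted p = 0.0118). Shank2 exon 8 of 23, in the gene of a postsynaptic scaffold, had 1.69, 1.03 and 2.62 RPKM against 2.26, 2.19 and 4.20 RPKM in H3K18La, with overlap between glucose levels.

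In 64 exon peaks of 27 collagen genes, H3K18La rose in 11 (17.2%, near the 20.6% of all peaks) and H3K27Ac in 4 (6.25%, against 16.4%), with 1 lower in H3K27Ac. The medians were 0.68 and 0.54, against 0.76 and 0.58 over all peaks. At 25 mM the median of H3K18La minus H3K27Ac was -0.01 in the deposited values, 0.24 centred on the median peak and 0.57 scaled to reads in peaks. In the deposited values 1 peak was called in each direction (1.56%), against 1.02% higher and 15.5% lower over all peaks. Col4a3 exon 35 of 52, in the gene of a basement membrane chain, had 0.897, 2.07 and 0.929 RPKM in H3K18La at 5 mM and 8.67, 7.91 and 6.17 RPKM at 25 mM (2.22 ± 0.38, adjusted p = 0.00113). Col19a1 exon 42 of 48 had 2.33, 3.80 and 3.62 RPKM against 11.7, 10.5 and 12.7 RPKM (1.71 ± 0.29, adjusted p = 0.001), whereas its H3K27Ac, 3.79 and 3.17 against 4.33 and 7.51 RPKM, did not pass. Col5a3 exon 31 of 67 had 2.03, 2.75 and 2.10 RPKM against 10.9, 6.32 and 4.33 RPKM (1.38 ± 0.37, adjusted p = 0.0172), a call lost without 25 mM replicate 1 (0.0873) or replicate 2 (0.0667).

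Zinc-finger gene symbols, mostly C2H2 factors, had 48 exon peaks in 37 genes, of which 4 rose in H3K18La (8.33%, against 20.6% of all peaks) and 11 in H3K27Ac (22.9%, against 16.4%), with medians of 0.51 and 0.86 against 0.76 and 0.58. Centred on the median peak, the H3K18La median was -0.12. Zfp710 exon 2 of 5 had 3.93, 2.40 and 3.05 RPKM in H3K18La against 10.5, 13.2 and 9.77 RPKM (1.70 ± 0.29, adjusted p = 0.0012). Zfp36l2 exon 2 of 2, whose protein binds RNA through CCCH and not C2H2 fingers, rose in H3K27Ac from 4.25 and 8.04 RPKM to 29.8 and 14.7 RPKM (1.75 ± 0.48, adjusted p = 0.0222).

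Developmental homeobox, forkhead, Pax and Sox genes had 30 exon peaks in 25 genes, of which 1 rose in H3K18La (3.33%, against 20.6% of all peaks) and 2 in H3K27Ac (6.67%, against 16.4%), with medians of 0.55 and 0.32 against 0.76 and 0.58. The H3K18La riser, Foxn1 exon 8 of 9, the gene of the thymic forkhead factor, had 1.74, 0.991 and 0.540 RPKM against 4.85, 4.15 and 3.22 RPKM (1.58 ± 0.44, adjusted p = 0.02). It was lost without H3K18La 25 mM replicate 1 (0.0798), 25 mM replicate 2 (0.0854) or 5 mM replicate 2 (0.0605). Foxn2 exon 3 of 3 had 2.39, 1.29 and 6.18 RPKM against 1.71, 2.48 and 3.39 RPKM, and the glucose levels overlapped. Six6 exon 2 of 2, in the gene of an eye field homeobox factor, had 1.61, 0.219 and 0.836 RPKM against 3.46, 1.95 and 1.91 RPKM without passing the test.

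Odorant and vomeronasal receptor genes, best known from the sensory neurons of the nose, had 16 exon peaks with 0 risers in either mark, against 20.6% and 16.4% of all peaks, and 2 lower in H3K27Ac at 25 mM. At an unadjusted p under 0.05 limma counted 1 of the 16 in H3K18La. Their median log2 differences were -0.19 in H3K18La and -0.34 in H3K27Ac. Olfr1402, Olfr223 and Olfr229, the highest of them, had 0 to 6 reads in each library. Averaged over the 16 peaks the level stayed between 0.399 and 1.05 RPKM in every library of either mark, against 1.13 to 5.25 RPKM over all exon peaks. Clustered protocadherin genes had 2 exon peaks, in Pcdhgc4 and Pcdhb3, and Hox genes had 0. Pcdhgc4 exon 1 of 4 rose in H3K27Ac from 1.26 and 2.31 RPKM to 6.37 and 5.71 RPKM (1.55 ± 0.41, adjusted p = 0.0206), and Pcdhb3 had at most 4 reads in any library.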

How the data were processed

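H3K18La was measured in 6 CUT&Tag libraries and H3K27Ac in 4, and their groups came from the sample titles and treatment labels. The authors aligned reads to GRCm38, called peaks with MACS, annotated them with ChIPseeker 1.34.1 and deposited RPKM values for each of 108253 peaks, while their separate table of edgeR 3.40.2 comparisons (fold changes and p-values) was not used here. The study gives the same number for the merged H3K18La peaks of its developing retina series, and its text does not say whether the deposited peaks are that set. If so, they were called neither in these explants nor for H3K27Ac, which bears on the shares of reads in peaks and on the comparison of the marks. The authors quantified peaks with csaw and normalised on reads counted in large genomic windows, and whether the denominators of the deposited RPKM hold that factor is not given in the sources used here. Every value was a whole number of reads (100%, within 0.01 read) of the library's denominator.

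Here log2(RPKM + 0.5) was fitted across all peaks with limma 3.58.1 in R 4.3.3 (empirical Bayes moderation with trend and robust settings, Benjamini-Hochberg adjustment over all 108253 peaks, threshold 0.05): 1 fit for each mark, and 1 for all 10 libraries for the marks and the interaction. No filter on low values was used. RPKM are not counts, so that this fit took the place of a count model, with voom on the recovered reads as an alternative. The fit was also run on simulated reads with large changes planted in peaks of a higher level than most exon peaks. That run does not test the fit at the read counts of most exon peaks. Per-library measures were compared by two-sided exact permutation with scipy 1.17.1. Coding sequence, exons and bases were read from GRCm38 and its GENCODE annotation, whose transcripts had the coordinates given in the deposited table in 99.7% of 32058 shared transcripts.

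The exon peaks and gene lists were chosen with earlier results of these data known. Named exon peaks were the 8 with the highest mean RPKM, the 8 largest rises and 5 largest falls in each mark and the 5 largest differences between marks each way at 25 mM (adjusted p under 0.05, groups apart, at least 10 mean reads in the higher group), the 5 genes with the most exon peaks (7 with ties), and the 3 highest of each list, at most 1 peak a gene in each set. Alternatives were other pseudocounts, filters, scalings, thresholds and moderation, a GC correction, a replicate block, coding or distant exon peaks only, and leaving out each library. Some exon peaks that met this rule are not reported here.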

Additional observations from a re-analysis of the deposited data

Results flagged for a closer look

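The difference between exon and intron peaks moved in opposite directions with glucose in the 2 marks. In mean log2(RPKM + 0.5), exon minus intron changed by -0.086 from 5 mM to 25 mM in H3K18La and by 0.029 in H3K27Ac, and in each mark no library at 25 mM overlapped those at 5 mM. By exact permutation p was 0.1 in H3K18La and 0.333 in H3K27Ac, the smallest these designs allow, and leaving out 1 library gave -0.103 to -0.078 and 0.011 to 0.048. The difference between the marks in this change was not tested. The share of reads in peaks rose with glucose in both marks over the same libraries, and its part in these values was not tested.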

How the results depend on the processing

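H3K18La called 1273 exon peaks by glucose, and this count was 293 with each library centred on its median, 0 (limma; 628 at an unadjusted p under 0.05) when scaled to reads in peaks, 696 at a threshold of 0.01 and 768 in exon peaks with coding bases, fewer being tested. Leaving out each library gave 706 to 1229, with 826 without replicate 1 at 25 mM and 706 without replicate 2. H3K27Ac called 968, against 231 centred, 4 at 0.01 and 623 with coding bases, and 0 (limma) without robust moderation (1744 unadjusted), with a pseudocount of 0.1 (1944), scaled (963) and without any of its libraries (0 to 0; 314 to 2362 unadjusted). A library left alone in its group is assumed to vary like the others. The marks differed at 25 mM in 1091, against 509 with a pseudocount of 0.1, 258 scaled, 1824 by voom and 481 at 0.01. Leaving out a library gave 182 to 1361, the lowest without H3K27Ac replicate 1 at 25 mM and 384 without replicate 2. At 5 mM the 1080 became 519 centred, 193 scaled and 492 at 0.01, and 66 to 1125 without each library, the lowest without H3K27Ac replicate 2 at 5 mM. The interaction stayed at 0. Same-numbered libraries of a mark did not deviate together (r = -0.004 to 0.024), and across marks at 25 mM r was 0.134 for replicate 1 and 0.050 for replicate 2. H3K18La replicate 3 and H3K27Ac replicate 2, of unlike number, had r = 0.105 at 25 mM. The 2 H3K27Ac libraries of a group deviate as mirror images, so that these values are not separate and show no pairing by number. A replicate block gave 1024, 486 (526 with a GC correction), 965 and 943 in the order above.

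Differences between classes, in log2 units, changed sign as follows. Exon peaks within 5 kb of a start site minus farther ones gave 0.012 for glucose in H3K18La and -0.0011 between marks with a pseudocount of 0.1, and -0.0052 between marks with 1, where exon minus intron in H3K27Ac gave -0.0057. In peaks of at least 1 mean RPKM the H3K27Ac values were -0.049 (exon minus other, glucose), -0.065 (the same, level), -0.049 (exon minus intron, level), 0.064 and 0.081 (last minus internal exon, glucose and level) and 0.067 (within 5 kb, level). There H3K18La gave 0.060 (exon minus promoter, level) and 0.069 (within 5 kb, glucose), and the marks differed by -0.109 within 5 kb. In exon peaks with coding bases the values were -0.039 (CpG-rich minus other, H3K27Ac glucose), -0.100, -0.225 and -0.080 (last minus internal, H3K18La glucose, H3K18La level and between marks), and -0.197 and 0.035 (within 5 kb, between marks and H3K27Ac level). Leaving out a library gave ranges across 0 for within 5 kb (H3K18La glucose, -0.021 to 0.022, and between marks, -0.020 to 0.020) and in H3K27Ac for exon minus other with glucose (-0.00019 to 0.043), last minus internal with glucose (-0.032 to 0.0054), exon minus intron in level (-0.0071 to 0.010) and CpG-rich minus other with glucose (-0.011 to 0.058). Of the named calls by glucose, scaling lost 31 of 31 in H3K18La and 30 of 30 in H3K27Ac, centring lost 11 and 13, and scaling turned Gm27244 (-0.35) and Lrit1 (-0.013) in H3K18La. Of these named calls a pseudocount of 0.1 lost 2 in H3K18La and 30 in H3K27Ac, as did the fit without robust moderation. A threshold of 0.01 lost 4 and 26, and the block 1 and 16. These causes were not tested. Depth limits exon peaks most in H3K18La at 5 mM, where a library had at least 10208 reads in them.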
